A study of Homo sapiens with 4 samples.

Results

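Ribosome biogenesis factors are the proteins that make ribosomal subunits without becoming part of the finished ribosome. The 54 genes described here were listed by symbol for their known nucleolar roles. They cover the cores of the small nucleolar ribonucleoprotein particles (snoRNPs), the abundant nucleolar proteins, the small-subunit (SSU) processome, late 40S assembly and 60S assembly. All 54 symbols were found among the 27011 genes of the count table, and all 54 were among the 10978 genes used for the comparison. RNA-Seq was performed on 2 WT and 2 Helz-null libraries of HEK293T, a human embryonic kidney line that carries the SV40 large T antigen. HELZ is an RNA helicase with a zinc finger that interacts with the CCR4–NOT deadenylase. The Helz-null line was made with Cas9 and a guide RNA to an exon of HELZ, which left a deletion that shifts the reading frame. Neither group received a treatment, and the groups differed in the HELZ genotype and in being separate lines. Whether the Helz-null line is a single clone is not given in the sources used here, so the genotype and the line cannot be told apart.

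Ribosome production starts in the nucleolus, where RNA polymerase I makes a long precursor of the ribosomal RNAs. Box C/D and box H/ACA snoRNPs modify that precursor, and the SSU processome folds and cleaves it on the way to the 40S subunit. A separate set of factors builds the 60S subunit around the remaining precursor. Genes for these factors are often expressed together in growing cells, and many of them are known targets of the transcription factor MYC.

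The libraries held between 41745401 and 70464140 counts, and the 54 genes took between 1.076 and 1.159% of them. A single member had between 1308 and 192849 counts in a library. HELZ itself, the edited gene, was at 97.66 and 101.7 CPM (counts scaled to the library total and its TMM factor) in WT and at 36.17 and 37.06 in Helz-null cells. It fell with a log2 fold change (log2FC, Helz-null over WT) of -1.44 (SE 0.0423, edgeR quasi-likelihood adjusted p = 2.13e-27), so the 4 libraries matched their labels. Among HEK293T markers, NEFL was at 102 to 109 CPM, and PAX8 was near 0 (at most 0.0947 CPM). For the other markers given here the groups did not overlap. PAX2 was at 5.08 and 5.25 CPM in WT and 6.91 and 6.34 CPM in Helz-null cells. NEFM was at 236 and 225 CPM in WT and 429 and 425 CPM in Helz-null cells, and LHX1 was at 2.91 and 2.62 against 6.44 and 4.78 CPM. EYA1 (17.6 and 17.9 CPM in WT, 12.6 and 11.7 in Helz-null cells) and VIM (1050 in both WT libraries, 958 and 943 CPM in Helz-null cells) lay lower in Helz-null cells. The part of these marker differences in the results was not tested. The markers of blood cells (PTPRC, CD3E), hepatocytes (ALB), endothelium (PECAM1) and basal epithelium (KRT5) did not exceed 0.143 CPM in any library. The study names its 2 libraries per group biological replicates, and p-values measure only the spread between these libraries. CPM is a share of a library, and in bulk RNA less RNA per cell and fewer expressing cells cannot be told apart.

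In Helz-null cells 19 of the 54 mRNAs (35.2%) were down-regulated and 3 (5.56%) were up-regulated at the study's threshold, an FDR under 0.005 in edgeR with adjustment over all genes tested. Of all genes tested, 15.5% were down-regulated and 13.9% were up-regulated. The drops were small. Their median log2FC was -0.17, which is a level 11.4% lower, and they ranged from -0.12 for LTV1 (fell by 7.69%) to -0.53 for HEATR1 (fell by 30.8%). Only 3 of the 19, HEATR1, RRP9 and WDR36, were more than 1.2-fold lower. The 3 up-regulated mRNAs encode DKC1 and NHP2 of the H/ACA snoRNP and UTP14A of the SSU processome. The median log2FC over all 54 was -0.082, against -0.00091 over all genes tested, and 38 of the 54 (70.4%) lay below 0, as did 50.2% of all genes. Both Helz-null libraries lay below both WT libraries for 31 members (57.4%), a pattern held by 35.7% of all genes tested. Both lay above for 11 members, and 34.9% of all genes tested did so. For the other 12 members the groups overlapped.

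**Figure D1:**
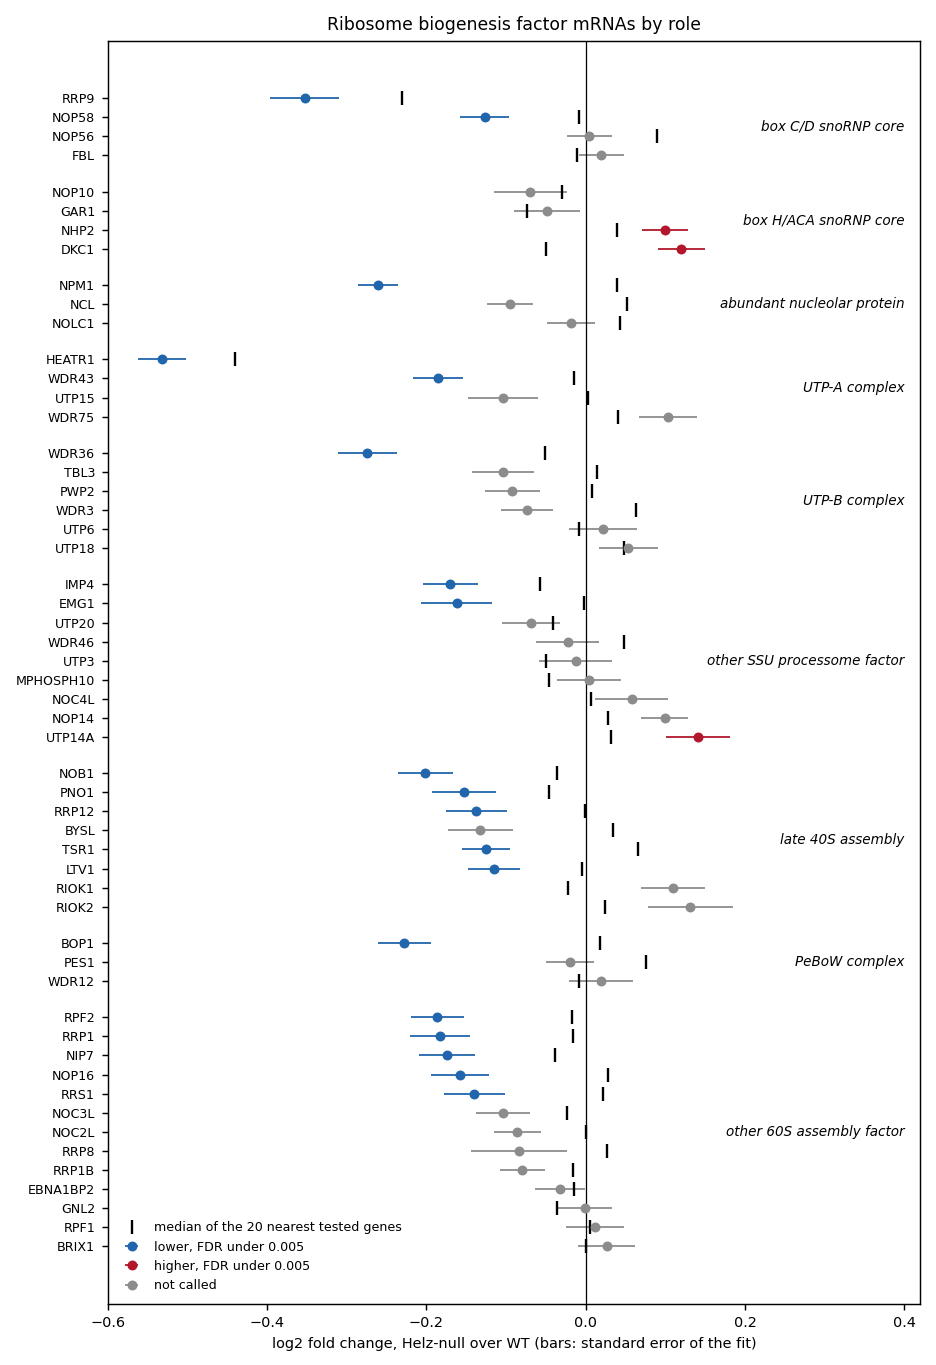
Log2 fold change of each of the 54 mRNAs, Helz-null over WT (x axis), ordered by role (y axis). Points are coloured by call, bars are the standard error of the edgeR fit, and black ticks mark the median log2FC of the 20 nearest tested genes on the same chromosome. The 19 lower mRNAs come from 8 of the 9 roles, HEATR1 and RRP9 lie farthest left, and the box H/ACA cores DKC1 and NHP2 lie right of 0.

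The counts depended on the scaling between libraries and on single libraries. With the library total as the only scaling, 12 members were down-regulated and 6 were up-regulated. Of all 10978 genes tested, 1317 were then down-regulated and 2123 up-regulated, against 1701 and 1524 in the reported fit. The median log2FC of all genes moved to 0.032 and that of the members to -0.048. Without WT replicate 1 the counts were 12 down and 5 up, without WT replicate 2 they were 22 and 2, without Helz-null replicate 1 they were 11 and 2, and without Helz-null replicate 2 they were 12 and 0. The calls of 8 members (HEATR1, RRP9, WDR36, NPM1, BOP1, NOB1, RPF2 and WDR43) were kept whichever library was left out. The other 14 called members lost the call without at least 1 library, and none of the 22 changed direction. The distance between the 2 medians was -0.081 with either scaling.

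The 3 abundant nucleolar proteins held more of the group's RNA than any other role, at 4819 of 11737 CPM in WT replicate 1 and 4637 of 11444 CPM in WT replicate 2. NPM1 (nucleophosmin, a histone and ribosomal protein chaperone of the outer nucleolus) was at 3005 and 2941 CPM in the WT libraries and at 2478 and 2485 CPM in the Helz-null libraries. Both Helz-null values lay below both WT values, by far more than replicates differed, and NPM1 fell with a log2FC of -0.26 (SE 0.0252, edgeR adjusted p = 2.95e-11). It lies on chromosome 5 of GRCh37 from 170814120 to 170838814, on the plus strand. The summed level of the 54 mRNAs was 11737 and 11444 CPM in WT and 10632 and 10755 CPM in Helz-null cells, or 92.3% of WT, and NPM1 alone gave 54.8% of that difference. Without NPM1, the sum was 8732 and 8503 CPM in WT and 8154 and 8270 CPM in Helz-null cells, which is 95.3% of WT. NPM1 has 49 pseudogenes named after it in the GENCODE annotation, none of them in the count table, and how reads shared with those copies were assigned is not given in the sources used here. NCL (nucleolin, which binds the nascent precursor) was at 1296 and 1217 CPM in WT and 1147 and 1206 CPM in Helz-null cells, a log2FC of -0.095 that missed the threshold (edgeR adjusted p = 0.00686). NOLC1, a snoRNP chaperone also known as Nopp140, had a log2FC of -0.018 and overlapping groups.

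**Figure D2:**
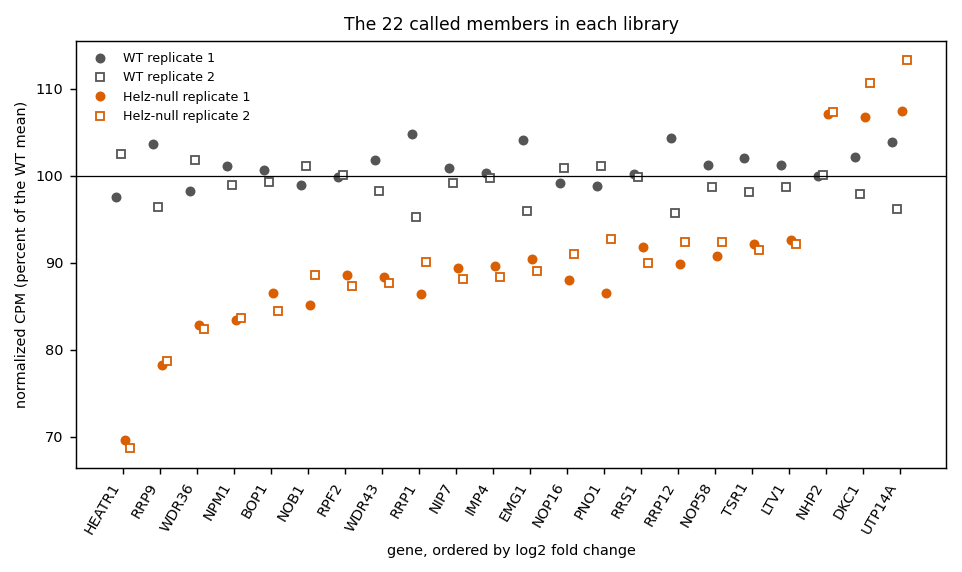
Normalized CPM of the 22 called members in each of the 4 libraries, as percent of the WT mean of the gene (y axis), ordered by log2 fold change (x axis). Filled symbols are replicate 1, open symbols are replicate 2, and in every one of the 22 genes both Helz-null libraries lie on the same side of both WT libraries.

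The 4 members listed with the box C/D snoRNP, which guides 2′-O-methylation, did not move together: 2 were down-regulated and 2 were not called. FBL, NOP56 and NOP58 are core proteins of that particle, while RRP9 belongs to the U3 particle. The core protein SNU13, in the list of further small-subunit factors, was not called (log2FC 0.077). RRP9, which binds the U3 snoRNA that organizes the SSU processome, was at 72.47 and 67.43 CPM in WT and 54.76 and 55.05 CPM in Helz-null cells. It fell by 21.7% (log2FC -0.35, SE 0.0433, edgeR adjusted p = 1.13e-08), with a median log2FC of -0.23 over its 20 nearest tested genes. NOP56 and NOP58 are the paired scaffold proteins of the particle. NOP58 was at 200.4 and 195.5 CPM in WT and 179.7 and 182.9 CPM in Helz-null cells and fell by 8.40% (log2FC -0.13, SE 0.0307, edgeR adjusted p = 8.64e-04). NOP56 was at 367.3 and 367.6 CPM in WT and 368.1 and 369.1 CPM in Helz-null cells (log2FC 0.0047, SE 0.0279). The difference between the fold changes of NOP56 and NOP58 was not tested. FBL (fibrillarin), the methyltransferase of the particle, had a log2FC of 0.020 and overlapping groups.

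The box H/ACA snoRNP guides pseudouridylation, and its core was the only role with more than 1 mRNA up-regulated. DKC1 (dyskerin), the pseudouridine synthase, was at 316.1 and 303.1 CPM in WT and 330.4 and 342.5 CPM in Helz-null cells. It rose by 8.68% (log2FC 0.12, SE 0.0297, edgeR adjusted p = 0.00103), a call that was lost without Helz-null replicate 2 (log2FC 0.093, edgeR adjusted p = 0.0758). It lies on chromosome X of GRCh37 from 153991017 to 154005964, on the plus strand. NHP2, an RNA-binding subunit, was at 280.2 and 280.6 CPM in WT and 300.1 and 300.9 CPM in Helz-null cells. It rose by 7.16% (log2FC 0.0997, SE 0.0286, edgeR adjusted p = 0.00428), a call that was lost in 7 of 14 alternatives. The exons of NHP2 overlap those of RMND5B on the opposite strand, whose log2FC was 0.14 (edgeR adjusted p = 0.00843) and whose counts summed to 11938 against 63863 for NHP2. Whether counting used strand is not given in the sources used here. The remaining subunits NOP10 (log2FC -0.070) and GAR1 (log2FC -0.049) were not called.

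The SSU processome is built from preformed complexes, of which UTP-A binds the start of the precursor first. HEATR1, the largest UTP-A subunit, which is also needed for RNA polymerase I transcription, had the lowest log2FC of the 54, in a region where neighbouring genes were low too (local median of the 20 nearest tested genes -0.44). It was at 307.9 and 323.2 CPM in WT and 219.8 and 216.6 CPM in Helz-null cells (log2FC -0.53, SE 0.0302, edgeR adjusted p = 6.44e-18). WDR43, another UTP-A subunit, was at 202.1 and 195.1 CPM in WT and 175.5 and 174.1 CPM in Helz-null cells and fell by 12.1% (log2FC -0.19, SE 0.0310, edgeR adjusted p = 4.81e-06). The other UTP-A members of the 54 were not called, with a log2FC of -0.10 for UTP15 and 0.10 for WDR75. The UTP-A subunits UTP4 and NOL11, in the list of further small-subunit factors, were not called either (log2FC -0.035 and -0.044). HEATR1 overlaps exons of LGALS8 on the opposite strand, which fell with a log2FC of -0.43. Counts of LGALS8 summed to 6791 over the libraries, against 58028 for HEATR1.

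Of the 6 UTP-B subunits, which follow UTP-A onto the precursor, WDR36 alone was down-regulated (16.7%, against 15.5% of all genes tested). It was at 90.80 and 94.18 CPM in WT and at 76.66 and 76.18 CPM in Helz-null cells (log2FC -0.27, SE 0.0373, edgeR adjusted p = 9.77e-08). WDR36 lies on chromosome 5 of GRCh37 from 110428019 to 110466200. The other 5 subunits (TBL3, PWP2, WDR3, UTP6, UTP18) were not called and lay between -0.10 and 0.053.

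Among 9 further SSU processome factors 2 were down-regulated (22.2%), 1 was up-regulated (11.1%) and 6 were not called. Of all genes tested, 15.5% were down-regulated and 13.9% were up-regulated. IMP4, which helps U3 to pair with the precursor, was at 110.2 and 109.6 CPM in WT and 98.46 and 97.03 CPM in Helz-null cells (log2FC -0.17, SE 0.0347, edgeR adjusted p = 1.06e-04). EMG1, a pseudouridine methyltransferase of the 18S rRNA, was at 64.94 and 59.87 CPM in WT and 56.42 and 55.53 CPM in Helz-null cells (log2FC -0.16, SE 0.0447, edgeR adjusted p = 0.00308). Without WT replicate 1 the log2FC of EMG1 was -0.099 (edgeR adjusted p = 0.125). EMG1 shares exon positions with LPCAT3 on the opposite strand, which had a log2FC of -0.025, was not called and summed to 9342 counts against 13017 for EMG1. UTP14A, which activates the helicase that releases U3, was at 79.98 and 74.02 CPM in WT and 82.72 and 87.21 CPM in Helz-null cells. It rose by 10.3% (log2FC 0.14, SE 0.0402, edgeR adjusted p = 0.00407), and its lower Helz-null value lay just above its higher WT value. The call was lost without WT replicate 2 (log2FC 0.093, edgeR adjusted p = 0.0573) and without Helz-null replicate 2 (log2FC 0.10, edgeR adjusted p = 0.138). NOP14 was close to the threshold on the same side, with a log2FC of 0.099 (edgeR adjusted p = 0.00654).

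In late 40S assembly 5 of 8 mRNAs were down-regulated (62.5%, against 15.5% of all genes tested) and none was up-regulated. Of these 5, NOB1 alone kept its call with library size as the only scaling and also without Helz-null replicate 1. NOB1, the endonuclease that makes the 3′ end of 18S rRNA, was at 119.1 and 121.7 CPM in WT and 102.5 and 106.6 CPM in Helz-null cells. It fell by 13.0% (log2FC -0.20, SE 0.0347, edgeR adjusted p = 8.21e-06). PNO1, the partner that binds the NOB1 cleavage site, was at 78.51 and 80.34 CPM in WT and 68.75 and 73.67 CPM in Helz-null cells (log2FC -0.15, SE 0.0401, edgeR adjusted p = 0.00196). RRP12, an export factor of the pre-40S particle, was at 105.1 and 96.33 CPM in WT and 90.51 and 92.98 CPM in Helz-null cells (log2FC -0.14, SE 0.0383, edgeR adjusted p = 0.0034). Without WT replicate 1 the log2FC of RRP12 was -0.069 (edgeR adjusted p = 0.18). The GTPase-like factor TSR1 (log2FC -0.13) and the 40S shuttling factor LTV1 (log2FC -0.12) were down-regulated too. TSR1 overlaps exons of SRR on the opposite strand, which had a log2FC of -0.080, was not called and summed to 16179 counts against 47807 for TSR1. BYSL (bystin) had the lowest log2FC of all members that were not called, -0.13 (edgeR adjusted p = 0.00731).

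The atypical kinases RIOK1 and RIOK2, which act in the last steps of 40S maturation, were on the other side of 0 and were not called. RIOK1 was at 75.25 and 70.04 CPM in WT and 79.31 and 77.96 CPM in Helz-null cells (log2FC 0.11, SE 0.0401, edgeR adjusted p = 0.024). RIOK2 was at 41.48 and 36.99 CPM in WT and 42.07 and 44.06 CPM in Helz-null cells. Its log2FC of 0.13 (SE 0.0532, edgeR adjusted p = 0.0425) was the highest of the members that were not called. Both kinases had their Helz-null libraries above their WT libraries, and RIOK2 also had the largest difference between WT replicates among the 54, 0.165 on the log2 scale.

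The PeBoW complex (PES1, BOP1 and WDR12) is needed to process the rRNA of the 60S subunit. BOP1 was at 145.3 and 143.3 CPM in WT and 124.9 and 121.9 CPM in Helz-null cells. It fell by 14.6% (log2FC -0.23, SE 0.0329, edgeR adjusted p = 3.38e-07), and it lies on chromosome 8 of GRCh37 from 145486055 to 145515082. Its partners PES1 (log2FC -0.019) and WDR12 (log2FC 0.019) were not called, and their groups overlapped. Differences between the fold changes of the 3 subunits were not tested.

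Of 13 other 60S assembly factors 5 were down-regulated (38.5%, against 15.5% of all genes tested) and none was up-regulated. RPF2, which with RRS1 brings the 5S particle into the pre-60S subunit, was at 123.8 and 124.1 CPM in WT and 109.8 and 108.2 CPM in Helz-null cells (log2FC -0.19, SE 0.0337, edgeR adjusted p = 1.85e-05). RRS1 was also down-regulated, with a log2FC of -0.14 (SE 0.0388). NIP7, a pre-60S factor, was at 103.0 and 101.2 CPM in WT and 91.22 and 89.95 CPM in Helz-null cells (log2FC -0.17, SE 0.0355, edgeR adjusted p = 1.01e-04). NOP16 fell with a log2FC of -0.16 (SE 0.0366). RRP1 and RRP1B are paralogs that lie near each other on chromosome 21. RRP1 was at 128.1 and 116.5 CPM in WT and 105.7 and 110.1 CPM in Helz-null cells and fell by 11.9% (log2FC -0.18, SE 0.0377, edgeR adjusted p = 1.22e-04), but its log2FC without WT replicate 1 was -0.11 and missed the threshold (edgeR adjusted p = 0.0164). RRP1B was at 366.4 and 356.6 CPM in WT and 342.4 and 342.0 CPM in Helz-null cells, a log2FC of -0.080 that was not called (edgeR adjusted p = 0.0206). The other 7 factors that were not called (NOC3L, NOC2L, RRP8, EBNA1BP2, GNL2, RPF1 and BRIX1) lay between -0.10 and 0.027. NOC2L overlaps exons of SAMD11 on the opposite strand, which fell with a log2FC of -0.33.

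Over all roles 32 members were not called. They ranged from -0.13 (BYSL) to 0.13 (RIOK2), and 14 of them lay within 0.05 of 0. At an FDR under 0.05, 7 more were lower and 4 more were higher. Standard errors of the 54 fold changes were between 0.0252 and 0.0603. The members' WT replicates differed by a median of 0.034 and Helz-null replicates by a median of 0.031 on the log2 scale.

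Levels per length, as FPKM (CPM per kilobase of gene width), differed far more between members than between the cell lines. NPM1 had the highest WT level, 1670 FPKM, and RIOK2 the lowest, 8.38 FPKM, and the median of the 54 was 44.1 FPKM. The snoRNP cores and abundant nucleolar proteins gave the 7 members above 100 FPKM (NPM1, NCL, NHP2, FBL, NOP56, NOLC1 and NOP10). The 5 below 20 FPKM were RRP8, WDR36, UTP15, UTP20 and RIOK2. When the members were ordered by WT level and divided into 3 sets of 18, the middle set (33.9 to 60.7 FPKM) held 10 of the down-regulated mRNAs and had a median log2FC of -0.14. The highest set held 6 down-regulated and 2 up-regulated mRNAs (median -0.075), and the lowest set held 3 and 1 (median -0.018). Differences between these sets were not tested.

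**Figure D3:**
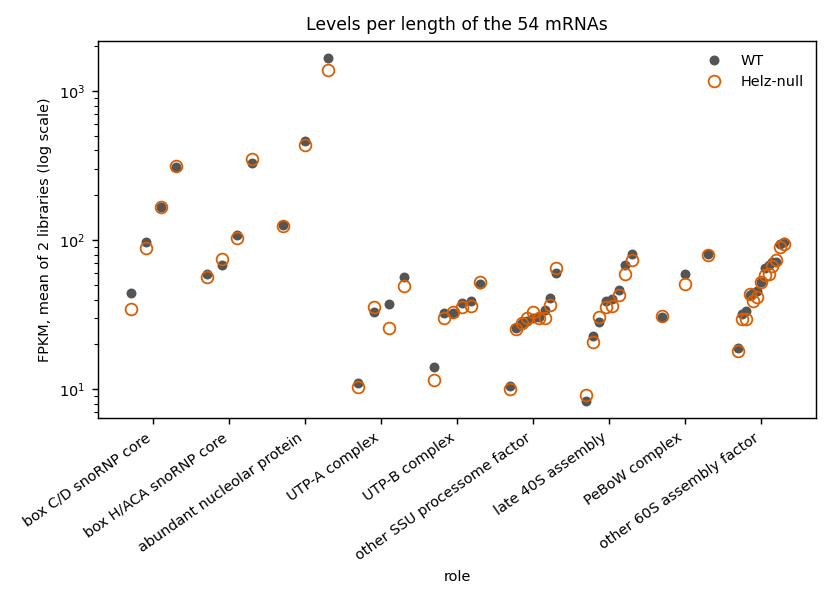
FPKM of the 54 mRNAs on a log scale (y axis), as the mean of 2 WT libraries (filled) and 2 Helz-null libraries (open), grouped by role (x axis). The snoRNP cores and abundant nucleolar proteins hold all members above 100 FPKM, and the open and filled symbols of a gene lie close together.

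The neighbourhood of each gene moved with some of the values. For each member the median log2FC was taken over the 20 nearest tested genes on its chromosome that are not members. For HEATR1, on chromosome 1 of GRCh37 from 236712305 to 236767816, this local median was -0.44, so HEATR1 lay -0.091 from its neighbours. For RRP9, on chromosome 3 from 51967445 to 51975920, it was -0.23. These were the only 2 members with a local median under -0.1, a value found around 7.23% of all tested genes with a position. None had a local median over 0.1. The local medians of the other 52 members were between -0.074 and 0.090, and the 54 lie on 18 chromosomes. Of the 54 members 36 lay below their local median, as did 50.1% of the tested genes with a position. With the local median subtracted, the median log2FC of the 54 was -0.089 and NPM1 had the lowest value (-0.30), followed by BOP1 (-0.25) and WDR36 (-0.22). DNA copy number was not measured, and its part in the values of HEATR1 and RRP9 was not tested.

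**Figure D4:**
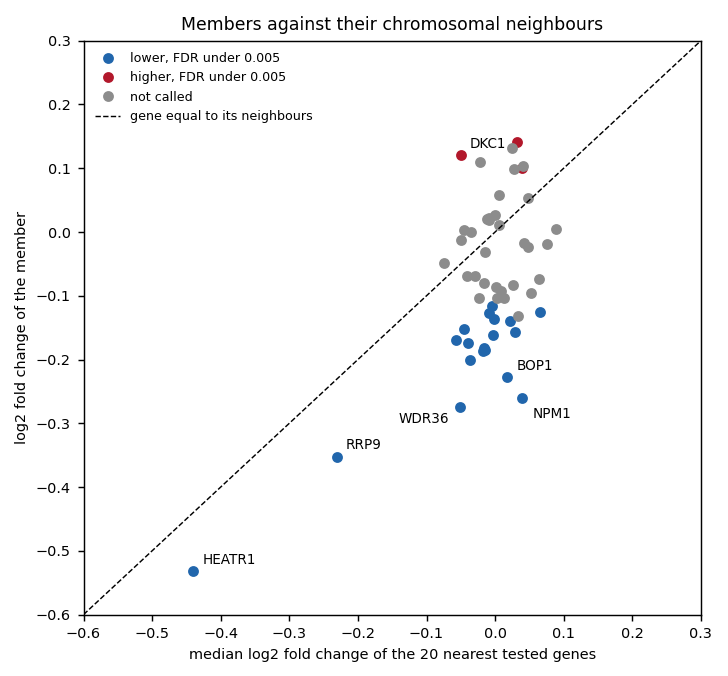
Log2 fold change of each member (y axis) against the median log2 fold change of its 20 nearest tested genes that are not members (x axis), coloured by call, with a dashed line where both are equal. HEATR1 and RRP9 lie far to the left, near -0.44 and -0.23, while NPM1, BOP1 and WDR36 lie well below neighbours that are close to 0.

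Other parts of ribosome production were described with lists written by role. Of all genes tested, 15.5% were down-regulated and 13.9% were up-regulated. RNA polymerase I and its factors had 5 of 15 mRNAs (33.3%) down-regulated and none up-regulated (median log2FC -0.13). The largest drops among them were TAF1A, of the promoter selectivity factor (log2FC -0.36), and POLR1D, a subunit shared with RNA polymerase III (log2FC -0.22). The local median was -0.40 around TAF1A and -0.014 around POLR1D. The exosome and RNase MRP, which trim and cut rRNA precursors, had 9 of 24 mRNAs (37.5%) down and 1 (4.17%) up (median log2FC -0.063). Their largest changes were in the MRP subunit RPP25 (log2FC -0.71, local median -0.41) and the exosome nuclease DIS3 (log2FC 0.48, local median 0.39). The 15 nucleolar RNA helicases had 4 calls down (26.7%, against 15.5% of all genes tested) and 1 call up (6.67%, against 13.9%). Their median log2FC was -0.067, and DDX47 (log2FC -0.21) and DDX31 (log2FC -0.20) lay lowest.

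Further factors of the 40S and 60S pathways made up 2 more lists. Of 30 further small-subunit factors 3 were down-regulated (10%) and 4 up-regulated (13.3%), near the 15.5 and 13.9% of all genes tested (median -0.0046). The largest changes among those called were IMP3, the partner of IMP4, at a log2FC of -0.44 (local median -0.43) and NOP9 at -0.35 (local median 0.045). Among 40 further large-subunit factors there were 8 down-regulated mRNAs and 1 up-regulated mRNA, or 20 and 2.5% (median -0.052). URB2 (log2FC -0.57) and RRP15 (log2FC -0.49), both on chromosome 1 as HEATR1 is, had local medians of -0.53 and -0.25. Of 9 snoRNP assembly factors 2 were down-regulated (22.2%, against 15.5% of all genes tested) and none was up-regulated (median -0.046). These were NAF1, which brings dyskerin to the H/ACA RNA (log2FC -0.90, local median -0.51), and PIH1D1, of the R2TP chaperone complex (log2FC -0.18).

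Cytosolic ribosomal proteins are the building blocks that the 54 factors assemble. They had 52 of 78 mRNAs down-regulated (66.7%, against 15.5% of all genes tested) and 1 up-regulated (median log2FC -0.13). Their largest drops were RPLP1 (log2FC -0.54, local median -0.39) and RPSA (log2FC -0.54, local median -0.27). Mitochondrial ribosomal proteins had 20 of 77 down-regulated (26%, against 15.5% of all genes tested) and 4 up-regulated (5.19%, against 13.9%). Their median was -0.056, with MRPL55 (log2FC -0.68, local median -0.65) and MRPL1 (log2FC -0.38, local median -0.024) lowest. MYC mRNA was at 90.49 and 93.21 CPM in WT and 84.66 and 87.63 CPM in Helz-null cells, a log2FC of -0.089 (SE 0.0368) that was not called (edgeR adjusted p = 0.0461). In the list of its network, which holds MYC itself, none of 8 tested mRNAs was down-regulated, and 2 (25%, against 13.9% of all genes tested) were up-regulated, the antagonists MXI1 (log2FC 0.29) and MXD4 (log2FC 0.14). The other antagonists were not called and lay on both sides of 0, at -0.053 for MXD1, 0.034 for MXD3, 0.15 for MNT and -0.12 for MGA.

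**Figure D5:**
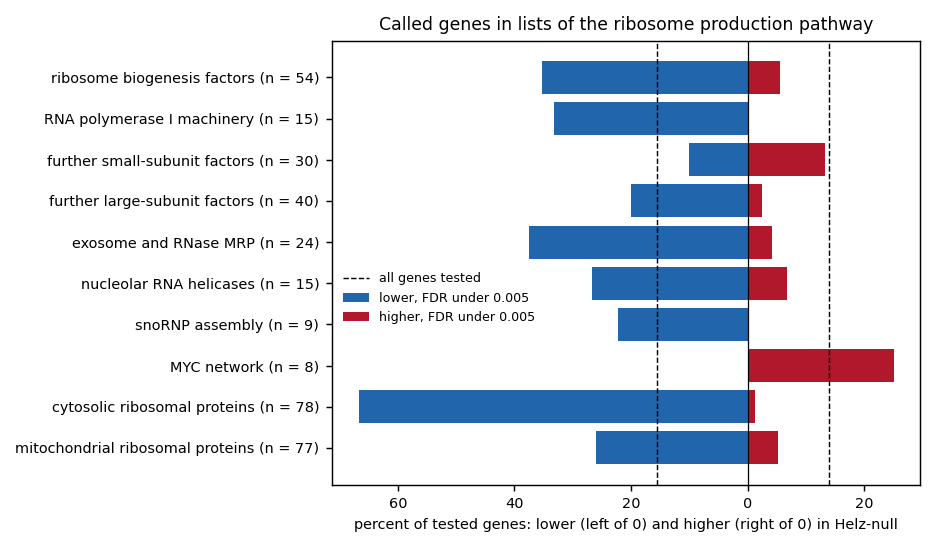
Percent of the tested genes of each list (y axis) that were lower (left of 0) or higher (right of 0) in Helz-null cells with an FDR below 0.005 (x axis), with dashed lines at the shares of all genes tested, 15.5% and 13.9%. The 54 ribosome biogenesis factors stand at 35.2% lower and 5.56% higher, and cytosolic ribosomal proteins stand farthest left.

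Promoters of the 54 genes were read from RefSeq (GRCh38.p14), from 250 bases before to 50 bases after the start of the gene, and 46 of the 54 had an entry. The letters CACGTG, the E-box bound by MYC and by other factors of its class, were in 18 of the 46 windows (39.1%), against 10.2% of 8526 tested genes and 7.27% of all 27305 promoters. They were in 5 of 14 windows of down-regulated members (35.7%), in 1 of 3 of up-regulated members and in 12 of 29 of members not called (41.4%). The letters were thus not confined to the mRNAs that moved. Missing entries were uneven: 14 of 19 down-regulated members had a window, against 29 of 32 members not called. The letters CGGAAG, an ETS motif, were on either strand in 58.7% of the members' windows, 34.4% of those of tested genes and 19.7% of all promoters. The letters GCCATNTT, a YY1 motif, were on either strand in 19.6, 11.2 and 6.78%. CACGTG reads the same on both strands, and CACGTG and CGGAAG cannot overlap, while GCCATNTT can share 1 base with CACGTG and up to 3 bases with CGGAAG. The median GC content of the windows was 63.5% in members, 65.7% in tested genes and 58.0% in all promoters. The windows around the E-box are shown for the down-regulated and up-regulated members that had one, with FBL and PES1 as 2 examples of the 12 members that were not called. Capitals mark the E-box, and each sequence is written on the strand of its gene.
RRP9, chr3:51941892-51941921, minus strand, 5 bases before the start: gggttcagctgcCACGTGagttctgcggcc
WDR43, chr2:28894658-28894687, plus strand, 4 bases after the start: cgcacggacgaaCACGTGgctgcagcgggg
IMP4, chr2:130342682-130342711, plus strand, 203 bases before the start: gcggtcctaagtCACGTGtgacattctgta
IMP4, chr2:130342900-130342929, plus strand, 16 bases after the start: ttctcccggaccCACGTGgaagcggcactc
LTV1, chr6:143843354-143843383, plus strand, 29 bases after the start: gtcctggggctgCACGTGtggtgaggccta
PNO1, chr2:68157885-68157914, plus strand, 10 bases after the start: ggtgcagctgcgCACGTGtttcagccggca
UTP14A, chrX:129905914-129905940, plus strand, 241 bases before the start: accttgggcCACGTGgaaaccaggggc
FBL, chr19:39846356-39846385, minus strand, 7 bases after the start: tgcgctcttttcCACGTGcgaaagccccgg
PES1, chr22:30591880-30591909, minus strand, 14 bases after the start: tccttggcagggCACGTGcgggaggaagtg

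Except for UTP14A and the upstream copy of IMP4, the E-boxes shown lie within 29 bases of the annotated start. Among the members that were not called and are not shown, some E-boxes lay farther away, at 170 bases before the start in NOP10, 89 before in UTP18, 42 after in WDR46 and 43 after in EBNA1BP2. A match of letters is a description of the sequence, and binding was not measured. Of the 54 genes 6 (NOP56, NOP58, DKC1, NCL, WDR43 and TSR1) also contain snoRNA genes in the GENCODE annotation, of which NOP58, WDR43 and TSR1 were down-regulated and DKC1 was up-regulated. The annotated transcripts of the members had a median length of 2440 bases and a median GC content of 46.8%, against 3283 bases and 48.3% over all genes tested with a transcript.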

How the data were processed

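The authors filtered out rRNA reads (Bowtie2), aligned the rest, sequenced as pairs, to hg19 (TopHat2) and used QuasR for counting. The deposited values are raw counts per gene. Versions, gene annotation and strand use are not given in the sources used here. In each library more genes had 2 counts (748 to 807) than 1 count (623 to 647), a pattern that arises where both mates of a pair are counted, so a fragment can add 2 counts. The deposited comparison holds the FDR, p-value, mean log2 CPM and log2 fold change of the authors for 10978 genes selected at FPKM above 2. Only its gene names were used.

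Here those genes were fitted with edgeR 4.0.16 (R 4.3.3; TMM, quasi-likelihood, genotype as the only term), adjusted by Benjamini-Hochberg over all of them and called at FDR under 0.005. The common biological coefficient of variation was 2.6%. FPKM was computed from deposited counts and gene widths. Positions came from GENCODE on GRCh37, where 10897 of the 10978 genes matched (518 by an older symbol). Chi-square per degree of freedom between replicates was 4.16 in WT and 3.01 in Helz-null cells, where counting noise alone would give 1, or about 2 if every fragment added 2 counts. Library totals of 41745401 to 70464140 set a floor of 3 counts at 0.0421 to 0.0716 CPM, and floors cover counting error only. Alternatives covered scaling, DESeq2 1.42.0, filters, thresholds, GC content, a replicate block and each library left out. Members and lists were chosen with earlier results of these data known. Members were named with each library's value by rule: in each role the 3 called members with the largest change, all up-regulated members, and the pairs NOP56 and NOP58, RRP1 and RRP1B, RIOK1 and RIOK2. The values of NCL were added after they were seen. From each other list the 2 called genes with the largest change were named. A marker gene on the list for the cell line is not reported here.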

Additional observations from a re-analysis of the deposited data

How the results depend on the processing

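Neither the fold change of any called member nor the median over all members changed direction under any alternative run, and HEATR1 alone kept its call in all 14 alternatives with a test. With the local median subtracted, which gives a value with no test, HEATR1 moved from -0.53 to -0.091 and RRP9 from -0.35 to -0.12. The number of down-regulated members was 19 in the reported fit, 12 with library size as the only scaling, 1 when tested against a 1.2-fold change, and 11 to 22 with a library left out. The 12 were all among the 19. The number up-regulated was 3, and it was 6 with library size only, 0 against 1.2-fold, 1 with edgeR's own filter on low counts, 7 at FDR under 0.05 and 0 to 5 with a library left out. Of all 10978 genes tested, 1701 were down-regulated and 1524 up-regulated in the reported fit. These numbers were 1317 and 2123 with library size only, 318 and 217 against 1.2-fold, and 2506 and 2371 at FDR under 0.05. A fit without a library leaves a group with 1 library, which is assumed to vary like the other group. The median log2FC of the members was -0.082, -0.048 with library size only, -0.065 with a GC correction and -0.095 to -0.065 with a library left out. DESeq2 called 14 down and 2 up. The replicate block gave 21 down and 4 up (median -0.077). Same-numbered libraries deviated together with a correlation of only 0.0343, so the numbers were not taken as pairs. HELZ kept its call throughout. NHP2, LTV1, RRP12, PNO1, EMG1 and RRS1 lost theirs in 6 or 7 of the 14 alternatives, and the cause was not tested. With 2 libraries per group, the smallest called difference of any gene was 0.0902 on the log2 scale.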
